A study of Marchantia polymorpha and Klebsormidium nitens with 125 samples.

Results

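Gemmalings of the liverwort Marchantia polymorpha that carry the Mphd9-14 mutation were starved of nitrate, and their transcripts were compared with those of Mphd9-14 gemmalings kept in full medium. The comparison rests on 6 of the 125 libraries of the series, 3 nitrate-starved and 3 control, chosen by their labels alone, and covers all 19355 genes of the count table. Gemmalings are young plants that grow from gemmae, the clonal propagules of the liverwort, and whole gemmalings were sampled. Mphd9-14 is 1 knock-out line of MpHD9, one of the transcription factors whose mutants the study exposed to starvation, and both groups carry the mutation. Nitrate-starved plants were grown in liquid Yamagami medium for 7 days and then kept for 5 days in medium with 1% of its nitrate, while control plants are labelled as full Yamagami medium. The labels do not say whether control plants were harvested after the 7 days or after the further 5, so plant age and nitrate supply cannot be told apart. Phosphate-starved Mphd9-14 plants had 1% of the phosphate and sucrose-starved ones 0% of the sucrose for the same 5 days. The other lines used here for comparison were the knock-out mutants Mpcsd-2 and Mperf20-21, starved alongside, and the wild-type strain Tak-1, starved in a separate time course.

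Nitrate is a main nitrogen source of plants, and plants short of it commonly change nitrate and ammonium transport, amino acid use and growth. Liverworts take up mineral nutrients over the thallus and through rhizoids, single tip-growing cells that work much as root hairs do. Tip growth and other cell expansion depend on wall synthesis by cellulose synthase-like D (CSLD) enzymes, on wall remodelling by xyloglucan-active enzymes of glycoside hydrolase family 16 (GH16) and by expansins, and on class III peroxidases (the MpPOD genes), secreted enzymes that can stiffen or loosen walls. Polyphenol oxidases (the MpPPO genes) oxidise phenolic compounds and form a large family in M. polymorpha.

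The nitrate-starved libraries held 18324375 to 24557161 counts and the control libraries 20072065 to 22628524. Values below are CPM (counts scaled to library size) after TMM scaling, and log2 fold changes are nitrate-starved over control with their standard error. Pearson correlations of log-scaled CPM were 0.991 to 0.992 within the nitrate-starved group and 0.991 to 0.992 within the control group, against 0.986 to 0.988 between the groups. The first principal component of these 6 libraries, with 39.9% of the variance, ran from 17.6 to 23.0 in nitrate-starved libraries and from -22.8 to -18.5 in control libraries. No label tells whether the replicates came from cultures of their own, and the p-values may therefore reflect technical spread alone.

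MpHD9 itself was still counted in the line. It stood at 19.2 to 23.4 CPM in nitrate-starved libraries and 21.7 to 24.3 CPM in control libraries before TMM scaling, with a log2 fold change of -0.07 ± 0.10 (adjusted p = 0.984). In the separate table of control conditions it was at 31.7 to 35.1 CPM in Mphd9-14 and 46.1 to 49.9 CPM in Tak-1. Counts over a whole gene do not show a small edit, so these levels do not test the knock-out label. MpCSD and MpERF20, the other regulators mutated in the study, had log2 fold changes of 0.01 ± 0.09 and -0.21 ± 0.26, and neither passed the test.

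Nitrate starvation of Mphd9-14 called few genes, and most of them were higher. Of 13162 genes tested, 141 were higher and 19 lower in nitrate-starved than in control gemmalings at a Benjamini-Hochberg adjusted p under 0.05 (edgeR quasi-likelihood test), which is 1.22% of the genes in either direction, 1.07% higher and 0.144% lower. All 160 called genes had nitrate-starved and control libraries that did not overlap. Selection by a small p favours such genes, and the share over all genes tested was not counted. The median log2 fold change was 1.30 over the genes called higher and -0.78 over those called lower, against -0.0057 over all genes tested, and 96 of the 160 (0.729% of genes tested) had an estimated change of at least 2-fold. Many of the higher genes were close to silent in full medium, since 50 of the 141 had a control mean under 1 CPM. Genes so low can pass the filter on low counts through starved libraries alone, and they leave little room for a call lower. A gene symbol was known for 52 of the higher and 4 of the lower genes. Of those 52, 30 belonged to 5 families, namely class III peroxidases, polyphenol oxidases, GH16 enzymes, CSLD enzymes and expansins. In that order the families had 65, 27, 21, 10 and 22 tested members, among 2370 tested genes with a symbol. The families were picked after the calls were seen. In whole gemmalings, more cells of a type and more RNA per cell cannot be told apart.

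**Figure D1:**
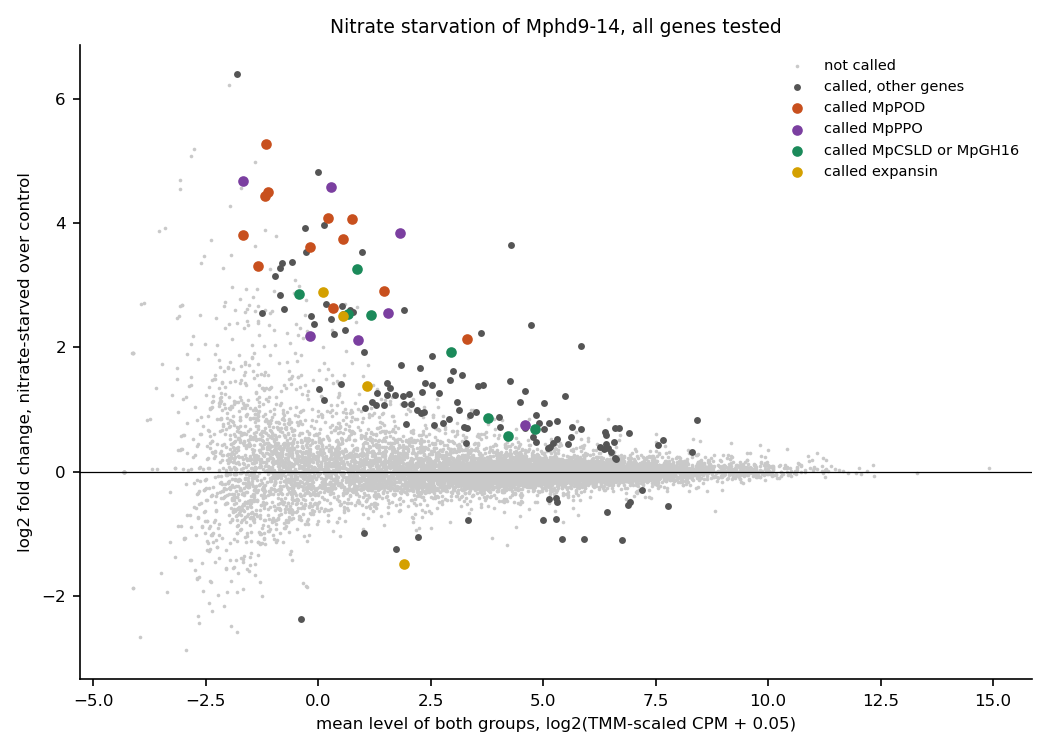
Log2 fold change of nitrate-starved over control Mphd9-14 gemmalings (vertical axis) against the mean level of both groups on a log2 scale of CPM with 0.05 added (horizontal axis), 1 point for each of the 13162 genes tested. Called genes are dark or coloured by family, and 141 lie above 0 and 19 below. The called peroxidases, polyphenol oxidases, CSLD and GH16 genes all lie above 0, and most of them are at low mean levels.

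The count depended on single libraries and on the other groups in the fit. Leaving out 1 library at a time gave 45 to 110 calls, with 45 without control replicate 2, 64 without nitrate-starved replicate 1, 75 without nitrate-starved replicate 3, 76 without control replicate 3, 84 without control replicate 1 and 110 without nitrate-starved replicate 2. Control replicate 2 was the lowest control library for 82 of the 141 genes called higher, against 34 for control replicate 1 and 29 for control replicate 3, ties included. A fit of the 6 libraries alone called 572 genes, 413 higher and 159 lower, 153 of them among the 160, and DESeq2 called 250, 155 of them among the 160.

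Class III peroxidases formed the largest called family. Of 168 listed members 69 passed the filter on low counts, and 12 of these 69 rose while 0 fell, against 1.07% higher and 0.144% lower over all genes tested, with a median log2 fold change of 0.63 over the 69 against -0.0057 over all genes. The list held 4 MpPRX genes by its name pattern, and none of them was called. The 12 genes averaged 0.50 to 16.2 CPM in nitrate-starved libraries and 0.015 to 3.67 CPM in control libraries, with log2 fold changes of 2.14 to 5.27. The count was 1 without control replicate 2, 3 without control replicate 1, 4 without control replicate 3, 5 without nitrate-starved replicate 1, 7 without nitrate-starved replicate 3 and 8 without nitrate-starved replicate 2, against 20 in the fit of the 6 libraries alone.

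MpPOD89, the only called peroxidase above 10 CPM, had 24.5, 9.12 and 14.9 CPM in nitrate-starved libraries, against 3.37, 4.80 and 2.83 CPM in control libraries. The groups did not overlap, and nitrate-starved replicate 1 was far above the other libraries. Its log2 fold change was 2.14 ± 0.40 (adjusted p = 0.00428), and the adjusted p was 0.0576 without nitrate-starved replicate 1. MpPOD155 had 3.25, 2.48 and 3.46 CPM in nitrate-starved libraries, against 0.237, 0.0436 and 0.262 CPM in control libraries. Every starved library of MpPOD155 was far above its highest control value, with a log2 fold change of 4.06 ± 0.76 and an adjusted p of 0.00472 (0.0584 without control replicate 2). MpPOD135 had 3.84, 1.35 and 2.75 CPM in nitrate-starved libraries, against 0.142, 0.0436 and 0.393 CPM in control libraries, a log2 fold change of 3.74 ± 0.73 with an adjusted p of 0.00786, which lost the call without control replicate 1 (0.0506) or 2 (0.0827). The other called peroxidases were likewise close to silent in full medium.

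MpPOD28 and MpPOD29 are adjacent genes, and so are MpPOD51 and MpPOD52, and such near copies can share reads. MpPOD28 had 5.10, 4.80 and 4.36 CPM in nitrate-starved libraries, against 0.807, 0.741 and 0.349 CPM in control libraries, and MpPOD29 had 2.23, 2.54 and 1.49 CPM in nitrate-starved libraries, against 0.474, 0.349 and 0.174 CPM in control libraries. Both genes were several-fold higher in every starved library than in any control library. A further 4 of the called peroxidases had at most 3 counts over the 3 control libraries, so their folds carry wide counting intervals. With so few control counts these 4 could be called only higher. MpPOD99 had 51 counts over the nitrate-starved libraries and 1 over the control libraries, a depth-scaled ratio of 52.9 (95% exact interval 9.07 to 2129). MpPOD119 had 51 counts over the nitrate-starved libraries and 2 over the control libraries, a depth-scaled ratio of 26.4 (95% exact interval 6.95 to 224). These intervals cover counting error only. MpPOD52 had 50 counts over the nitrate-starved libraries and 2 over the control libraries, a depth-scaled ratio of 25.9 (95% exact interval 6.81 to 219.9), and MpPOD51 had 31 counts over the nitrate-starved libraries and 2 over the control libraries, a depth-scaled ratio of 16.1 (95% exact interval 4.09 to 139). The remaining called peroxidases, MpPOD93, MpPOD108 and MpPOD154, had log2 fold changes of 3.62, 3.30 and 4.08.

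Polyphenol oxidases rose as well. Of 57 listed members 27 were tested, 7 rose and 0 fell, against the same 1.07% higher and 0.144% lower over all genes, with a median log2 fold change of 0.30 over the 27. Their count was 3 without nitrate-starved replicate 1 and without each of the 3 control replicates in turn. MpPPO72, MpPPO14 and MpPPO56 lie next to each other in the genome. MpPPO72 had 8.35, 6.04 and 5.19 CPM in nitrate-starved libraries, against 0.617, 0.305 and 0.436 CPM in control libraries, with a log2 fold change of 3.84 ± 0.65 (adjusted p = 0.00171). MpPPO14 had 2.72, 1.67 and 2.40 CPM in nitrate-starved libraries, against 0.142, 0.0436 and 0.0872 CPM in control libraries, with a log2 fold change of 4.58 ± 0.81 (adjusted p = 0.00273). Both kept their calls in all 11 alternative fits, those without single libraries included. MpPPO56 had a log2 fold change of 2.55 ± 0.56 (adjusted p = 0.0144).

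MpPPO48 had 2.62, 3.62 and 2.59 CPM in nitrate-starved libraries, against 0.664, 0.741 and 0.611 CPM in control libraries, with a log2 fold change of 2.12 ± 0.43 and an adjusted p of 0.00803, which was 0.0507 without control replicate 2 and 0.0525 without control replicate 3. MpPPO4, the called polyphenol oxidase with the most CPM, had 37.2, 26.6 and 26.5 CPM in nitrate-starved libraries, against 15.5, 20.5 and 17.8 CPM in control libraries. Its starved libraries were all above its controls, but by little for replicates 2 and 3, and the log2 fold change was 0.75 ± 0.18 (adjusted p = 0.0314). The adjusted p of MpPPO4 was 0.295 without nitrate-starved replicate 1, and 0.194, 0.0633 and 0.115 without control replicates 1, 2 and 3. MpPPO52 had a log2 fold change of 2.18. MpPPO6 had 34 counts over the nitrate-starved libraries and 1 over the control libraries, a depth-scaled ratio of 35.3 (95% exact interval 5.91 to 1433). It averaged 0.516 CPM in nitrate-starved, 0.245 CPM in phosphate-starved and 0 CPM in sucrose-starved Mphd9-14 libraries. Its place among the genes tested thus rested on starved groups, and it could be called only higher.

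Enzymes that build and remodel wall polysaccharides rose in part. Of 101 listed members 69 were tested, 8 rose and 0 fell (1.07% and 0.144% over all genes), with a median log2 fold change of 0.09, and the 8 were MpCSLD1, MpCSLD2, MpCSLD4, MpCSLD7, MpGH16.13, MpGH16.26, MpGH16.31 and MpGH16.38. The count was 0 without control replicate 2, 3 without nitrate-starved replicate 3, 4 without nitrate-starved replicate 1, nitrate-starved replicate 2 or control replicate 3, 5 without control replicate 1, and 15 in the fit of the 6 libraries alone. The CSLD enzymes synthesise wall glucans at the tips of growing cells, and 4 of 10 tested members rose. MpCSLD4 had 12.5, 11.01 and 12.8 CPM in nitrate-starved libraries, against 3.18, 2.09 and 4.27 CPM in control libraries. The lowest starved library of MpCSLD4 was far above its highest control, with a log2 fold change of 1.93 ± 0.50 (adjusted p = 0.0458). This call was lost when any 1 of the 6 libraries was left out, at adjusted p of 0.0879 to 0.296, and with DESeq2.

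MpCSLD7 had 34.3, 31.5 and 38.6 CPM in nitrate-starved libraries, against 23.1, 18.8 and 22.9 CPM in control libraries, with a log2 fold change of 0.69 ± 0.15 (adjusted p = 0.0108). MpCSLD1 had 21.6, 21.3 and 23.7 CPM in nitrate-starved libraries, against 16.9, 14.7 and 13.2 CPM in control libraries, with a log2 fold change of 0.57 ± 0.14 (adjusted p = 0.0405). MpCSLD2 had 1.21, 1.46 and 1.02 CPM in nitrate-starved libraries, against 0.237, 0.0872 and 0.174 CPM in control libraries, with a log2 fold change of 2.85 ± 0.66 (adjusted p = 0.0240). Members of the family with far higher counts were not called. MpCSLD9 averaged 932 ± 49.4 CPM in nitrate-starved libraries and 880.0 ± 46.1 CPM in control libraries (SD, n = 3 each), and MpCSLD3 averaged 372 ± 25.6 CPM in nitrate-starved and 309 ± 13.1 CPM in control libraries. MpCSLD1 and MpCSLD2 were also the only markers of rhizoids that could be matched by symbol, and their summed level was 22.7 to 24.7 CPM in nitrate-starved libraries and 13.4 to 17.1 CPM in control libraries. Whether the share of rhizoid cells differed was not tested.

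**Figure D2:**
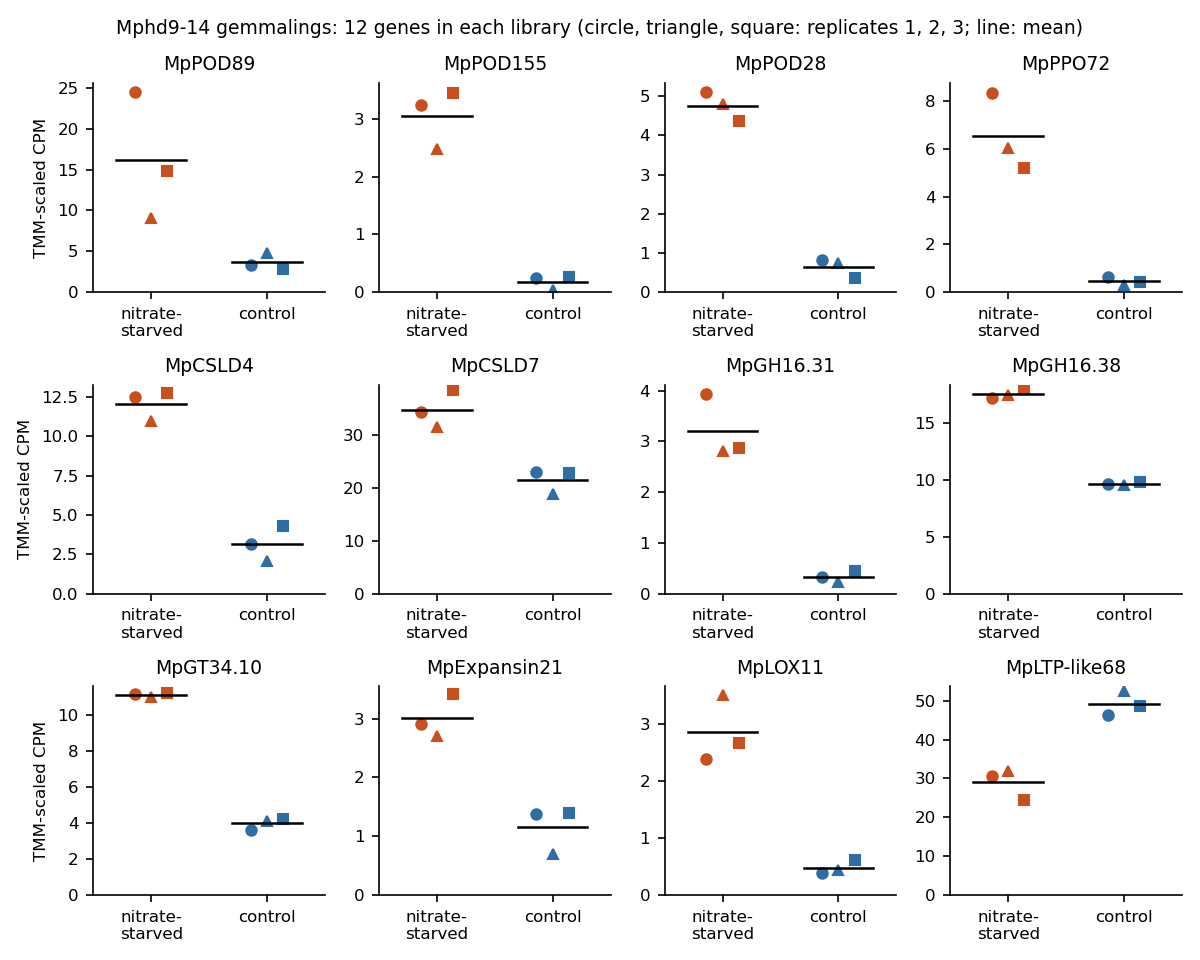
TMM-scaled CPM (vertical axes, from 0) of 12 genes in each nitrate-starved and control Mphd9-14 library, with circle, triangle and square for replicates 1, 2 and 3 and a line for the group mean. Starved libraries lie above control libraries for the 11 genes that rose and below them for MpLTP-like68, and MpPOD89 has its highest value, 24.5 CPM, in nitrate-starved replicate 1.

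The GH16 enzymes cut and rejoin xyloglucan chains, and 4 of 21 tested members rose, against 1.07% of all genes tested. MpGH16.31 had 3.93, 2.81 and 2.87 CPM in nitrate-starved libraries, against 0.332, 0.218 and 0.436 CPM in control libraries, with a log2 fold change of 3.26 ± 0.63 (adjusted p = 0.00578). MpGH16.38 had 17.2, 17.4 and 17.9 CPM in nitrate-starved libraries, against 9.58, 9.55 and 9.77 CPM in control libraries, with a log2 fold change of 0.86 ± 0.22 (adjusted p = 0.0463). Its libraries were tight within each group, yet the adjusted p was 0.112 to 0.204 when any 1 of the 6 libraries was left out. MpGH16.13 and MpGH16.26 had log2 fold changes of 2.52 ± 0.52 and 2.54 ± 0.52, and these and MpGH16.31 lost their calls only without control replicate 2.

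MpGT34.10, of the glycosyltransferase family 34 that adds side chains to wall polysaccharides, kept its call in all 11 alternative fits. It had 11.1, 10.96 and 11.2 CPM in nitrate-starved libraries, against 3.61, 4.10 and 4.23 CPM in control libraries, and its log2 fold change was 1.48 ± 0.21 (adjusted p = 1.81e-04). The other 11 tested GT34 genes were not called, where 1.22% of all genes tested were. The adjacent genes MpC1-RGPs.1 and MpC1-RGPs.2 also rose. MpC1-RGPs.1 had 215, 213 and 219.7 CPM in nitrate-starved libraries, against 161, 151 and 169 CPM in control libraries (log2 fold change 0.43 ± 0.09, adjusted p = 0.00916), and MpC1-RGPs.2 had a log2 fold change of 0.32 ± 0.07 (adjusted p = 0.0165). These 2 genes were outside the rule for named genes and were chosen after their values were seen.

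Expansins, which loosen walls without cutting them, moved in both directions. Of 37 listed members 22 were tested, 3 rose and 1 fell (1.07% and 0.144% over all genes), with a median log2 fold change of 0.19. MpExpansin21 had 2.91, 2.699 and 3.42 CPM in nitrate-starved libraries, against 1.38, 0.698 and 1.40 CPM in control libraries, with a log2 fold change of 1.38 ± 0.30 (adjusted p = 0.0136). MpExpansin38 had 2.91, 2.10 and 2.16 CPM in nitrate-starved libraries, against 0.332, 0.305 and 0.611 CPM in control libraries (log2 fold change 2.50 ± 0.55, adjusted p = 0.0148), and MpExpansin12 had a log2 fold change of 2.89 ± 0.73 (adjusted p = 0.0418). MpExpansin34 went the other way, with 1.603, 1.40 and 2.71 CPM in nitrate-starved libraries, against 4.602, 6.06 and 5.71 CPM in control libraries (log2 fold change -1.49 ± 0.38, adjusted p = 0.0452). The count of expansins that rose was 0 without control replicate 2, and 1 without nitrate-starved replicate 1, nitrate-starved replicate 3 or control replicate 1.

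Several single genes of secondary and lipid metabolism rose with these families. MpLOX11, a lipoxygenase, the enzyme class that starts the synthesis of oxylipins such as jasmonate precursors, had 2.38, 3.51 and 2.67 CPM in nitrate-starved libraries, against 0.380, 0.436 and 0.611 CPM in control libraries. Every starved library was well above every control, with a log2 fold change of 2.56 ± 0.34 (adjusted p = 7.04e-05). MpLOX11 was the only called gene of 12 tested on the jasmonate list, against 1.22% over all genes. MpPAL9, of the phenylalanine ammonia-lyase family that opens phenylpropanoid synthesis, had 7.04, 6.75 and 6.96 CPM in nitrate-starved libraries, against 2.56, 2.31 and 3.66 CPM in control libraries (log2 fold change 1.28 ± 0.25, adjusted p = 0.00579, and 0.0676 without control replicate 2). It was the only call among 61 tested phenylpropanoid genes, which is near the 1.22% over all genes. MpOMT3, an O-methyltransferase, had 61.6, 63.1 and 62.5 CPM in nitrate-starved libraries, against 40.1, 34.06 and 39.9 CPM in control libraries, with a log2 fold change of 0.71 ± 0.11 (adjusted p = 7.01e-04) that held in all 11 alternative fits.

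MpPR5b, of the thaumatin-like pathogenesis-related family, had 44.0, 32.0 and 36.2 CPM in nitrate-starved libraries, against 19.5, 21.6 and 18.6 CPM in control libraries, with a log2 fold change of 0.91 ± 0.17 (adjusted p = 0.00455, and 0.0569 without nitrate-starved replicate 1). MpLEA-like54, of the late embryogenesis abundant proteins linked to drying, had 11.4, 12.5 and 11.8 CPM in nitrate-starved libraries, against 4.98, 2.75 and 3.88 CPM in control libraries (log2 fold change 1.62 ± 0.36, adjusted p = 0.0173), and MpLEA-like55 had a log2 fold change of 0.45 ± 0.11. These were 2 calls among 37 tested late embryogenesis and lipid droplet genes, against 1.22% over all genes. The glutathione S-transferases MpGST10 and MpGST9, the only 2 called of 32 tested against 1.22% over all genes, had log2 fold changes of 0.71 ± 0.15 and 0.38 ± 0.09. MpFBA1 had 131, 117 and 133 CPM in nitrate-starved libraries, against 81.0, 73.9 and 79.9 CPM in control libraries (log2 fold change 0.70 ± 0.16, adjusted p = 0.0170). MpDIR35, a dirigent protein, MpPLD8, a phospholipase D, and MpCupin71 had log2 fold changes of 0.84 ± 0.19, 0.77 ± 0.19 and 3.37 ± 0.82, and MpRLK-Pelle_L-LEC20, a lectin-type receptor-like kinase, had 3.15 ± 0.76. Apart from MpPR5b, the 9 genes named here from MpLEA-like54 on lost their calls without nitrate-starved replicate 1, without control replicate 2 and without control replicate 3, at adjusted p of 0.0576 to 0.267. Of the 9, 6 also lost them without nitrate-starved replicate 3 and 6 without control replicate 1, and 4 without nitrate-starved replicate 2. MpPLD8 and MpRLK-Pelle_L-LEC20 also lost their calls without the low-count filter, and MpPLD8 in the fit of the 6 libraries alone.

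The smallest adjusted p belonged to genes without a symbol in the reference table. Mp6g17720 had 43.4, 30.2 and 33.9 CPM in nitrate-starved libraries, against 1.76, 2.97 and 3.84 CPM in control libraries, a log2 fold change of 3.64 ± 0.43 with an adjusted p of 1.97e-05. Its neighbour Mp6g17710 had 101, 77.2 and 97.2 CPM in nitrate-starved libraries, against 22.3, 21.4 and 24.2 CPM in control libraries, a log2 fold change of 2.02 ± 0.24 with an adjusted p of 1.97e-05. Every starved library was above every control by a wide margin in both genes, which were named after their values were seen. In all, 18 of the 160 called genes lie next to another called gene, and all 18 were called higher.

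Only 4 of the 19 genes called lower had a symbol. MpLTP-like68, named as a lipid-transfer-like protein, had 30.6, 32.0 and 24.5 CPM in nitrate-starved libraries, against 46.3, 52.4 and 48.6 CPM in control libraries, with a log2 fold change of -0.76 ± 0.12 (adjusted p = 0.00113). MpOXR4 had 33.8, 32.8 and 33.4 CPM in nitrate-starved libraries, against 45.4, 40.9 and 48.3 CPM in control libraries (log2 fold change -0.43 ± 0.07, adjusted p = 0.00113), and MpCupin37 had 28.3, 33.0 and 28.1 CPM in nitrate-starved libraries, against 41.3, 40.6 and 38.9 CPM in control libraries (log2 fold change -0.43 ± 0.10, adjusted p = 0.0227). The calls of MpLTP-like68 and MpOXR4 held in all 11 alternative fits, while that of MpCupin37 was lost when any 1 of 5 libraries, all but nitrate-starved replicate 2, was left out. Among genes without a symbol, chosen after their values were seen, Mp8g17780 had 62.2, 86.8 and 56.5 CPM in nitrate-starved libraries, against 136, 158 and 144 CPM in control libraries (log2 fold change -1.09 ± 0.17, adjusted p = 7.85e-04), and Mp6g00480 had 27.2, 27.4 and 27.7 CPM in nitrate-starved libraries, against 54.7, 56.6 and 63.5 CPM in control libraries (log2 fold change -1.09 ± 0.15, adjusted p = 1.81e-04).

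Genes of nitrogen uptake and use did not pass the test. None of 33 tested members of the lists for nitrate transport, for ammonium, amino acid and urea transport and for nitrogen assimilation was called. The share over all genes tested was 1.22%, so this count does not set the lists apart. Their smallest adjusted p was 0.153, and log2 fold changes ran from -0.54 to 1.65. The assimilation list held only MpCNX among genes with a symbol, taken by its symbol alone, so the nitrate and nitrite reductases were not covered. Of the ammonium transporters, MpAMT2.2 had 3.16, 3.51 and 5.42 CPM in nitrate-starved libraries, against 2.51, 1.70 and 3.10 CPM in control libraries (log2 fold change 0.74 ± 0.23, adjusted p = 0.153), and MpAMT1.4 had a log2 fold change of 0.77 ± 0.26 (adjusted p = 0.197). MpNPF31, a member of the nitrate and peptide transporter family, had 5.54, 4.43 and 5.86 CPM in nitrate-starved libraries, against 8.54, 7.76 and 6.02 CPM in control libraries (log2 fold change -0.49 ± 0.27, adjusted p = 0.689). A further 10 tested regulators of nitrogen signalling had 0 calls, which does not set them apart from that share either.

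Transcription factors and growth genes gave 1 call. Over the lists of WRKY, ERF, bZIP, MYB, bHLH, NAC, homeobox and GRAS, GATA, Dof and CCA1-like factors, 183 genes were tested and 1, MpBHLH16, was called. Over all genes tested 1.22% were called, so this count does not set the factors apart. MpBHLH16 had 34.14, 30.2 and 35.3 CPM in nitrate-starved libraries, against 25.3, 22.4 and 23.7 CPM in control libraries (log2 fold change 0.48 ± 0.11, adjusted p = 0.0190), and lost the call without nitrate-starved replicate 1 or 3 or control replicate 2 or 3. The lists of autophagy (21 tested), cell cycle (17), replication helicase (10), histones (25), cytochromes P450 (82) and UDP-glycosyltransferases (30) had 0 calls each, against the same 1.22%. Medians were slightly below 0 for histones (-0.13), the replication helicase (-0.12) and the cell cycle (-0.10). Over all genes, 1153 had an unadjusted p under 0.05, so lists with 0 calls do not show that their members were level.

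**Figure D3:**
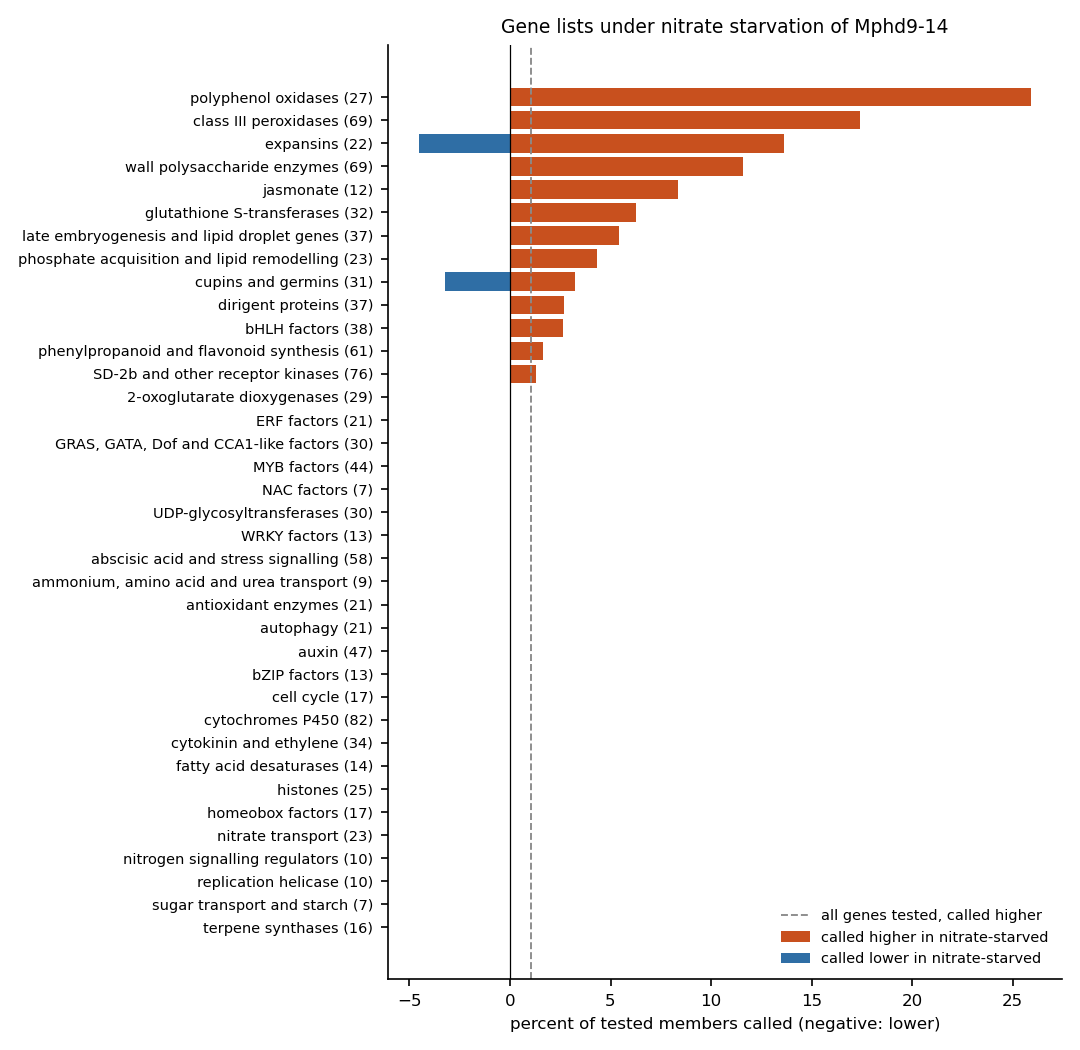
Percent of the tested members of each gene list that were called higher (right) or lower (left of 0) in nitrate-starved than in control Mphd9-14 gemmalings, for lists with at least 7 tested members, whose number is in brackets. The dashed line is the 1.07% of all tested genes called higher, and polyphenol oxidases, class III peroxidases, expansins and wall polysaccharide enzymes lie furthest above it.

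Markers of other cell types had 0 calls, although their summed levels were partly lower in nitrate-starved libraries, and their part in these results was not tested. The 4 matched oil body markers summed to 53.7 to 65.7 CPM in nitrate-starved libraries and 61.3 to 76.0 CPM in control libraries, with 0 called and none at 0. Most of that sum was MpC1HDZ, with 2290 counts over the nitrate-starved and 2910 over the control libraries, while MpABCG1 had 1133 and 1116. The 3 matched gemma markers summed to 206 to 219 CPM in nitrate-starved and 248 to 257 CPM in control libraries, with 0 called. That sum was mostly MpRR-MYB5, with 12623 counts over the nitrate-starved and 15798 over the control libraries. MpKAR had 926 and 1020 counts, and MpGCAM1 went the other way with 84 and 60. Of 7 matched gametangium markers 3 passed the filter and 0 were called. MpRBCS, a subunit gene of the carbon-fixing enzyme and the only matched marker of photosynthetic thallus, was at 329 to 366 CPM in nitrate-starved and 382 to 405 CPM in control libraries and was not called.

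The other mutants, each with its own controls, gave a partly shared response. Of the 141 genes that rose in Mphd9-14, 73 also rose in Mperf20-21, where 428 genes (3.25%) were called in all, which is 51.8% of the 141 and 22.7% of the 322 genes that rose there, against 2.45% of all genes. In Mpcsd-2, where 243 genes (1.85%) were called, 43 of them rose, which is 30.5% of the 141 and 19.5% of the 221 genes that rose there, against 1.68% of all genes. None of the 141 was called lower in either mutant. Their median log2 fold change was 1.30 in Mphd9-14, whose libraries selected them, against 0.97 in Mperf20-21 and 0.72 in Mpcsd-2. Of the 19 genes that fell, 15 fell in Mperf20-21, where 0.805% of all genes fell, and 7 in Mpcsd-2, where 0.167% did.

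MpGT34.10 rose in all 3 mutants, with log2 fold changes of 1.48 ± 0.21 in Mphd9-14, 1.14 ± 0.26 in Mpcsd-2 and 1.25 ± 0.21 in Mperf20-21. MpPOD89 did too, with 2.14 ± 0.40, 2.34 ± 0.42 and 3.24 ± 0.37 in the same 3 lines. MpLOX11 rose in Mperf20-21 (1.68 ± 0.32, adjusted p = 0.00180) and was not called in Mpcsd-2 (0.72 ± 0.47, adjusted p = 0.706). The difference of its response between Mphd9-14 and Mpcsd-2 was 1.85 ± 0.60 and did not pass the test (adjusted p = 0.833). MpLTP-like68 fell in each mutant, by 0.76 in Mphd9-14, by 0.63 in Mpcsd-2 and by 0.79 in Mperf20-21 on the log2 scale.

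**Figure D4:**
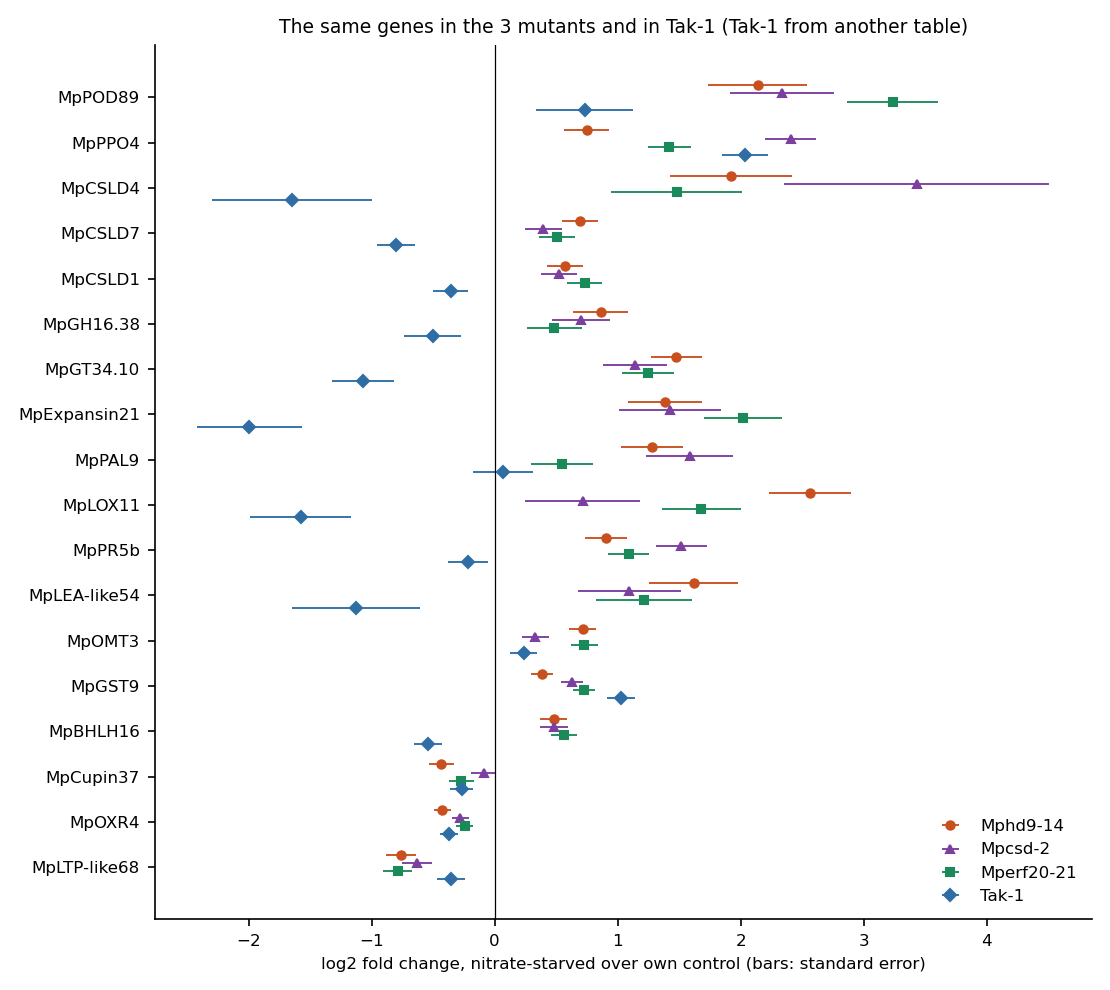
Log2 fold change of nitrate-starved over own control plants (horizontal axis) with its standard error for 18 genes in Mphd9-14, Mpcsd-2, Mperf20-21 and Tak-1. Most of the genes that rose in Mphd9-14 lie right of 0 in the other mutants and left of 0 in Tak-1, whose libraries come from another table, while MpPPO4, MpGST9, MpPOD89, MpOMT3 and MpPAL9 lie right of 0 in all 4 lines.

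Tested directly, few differences between the nitrate response of Mphd9-14 and those of the other mutants passed the test. Against Mperf20-21 no gene had a difference that passed the test (0%, and 0 with DESeq2). There 466 genes had an unadjusted p under 0.05, which is a share below 0.05 of the genes tested. Against Mpcsd-2, 3 genes (0.0228%) differed, all with a lower response in Mphd9-14, and DESeq2 called 11. They were MpPPO4, MpRLK-Pelle_L-LEC2, a lectin-type receptor-like kinase, and Mp2g18580, of which the last 2 were named after their values were seen. MpPPO4 had 37.2, 26.6 and 26.5 CPM in nitrate-starved and 15.5, 20.5 and 17.8 CPM in control Mphd9-14, against 22.6, 21.7 and 19.4 CPM in nitrate-starved and 3.44, 3.64 and 4.83 CPM in control Mpcsd-2. The Mpcsd-2 control libraries were the lowest of all for MpPPO4, and the difference of log2 fold changes was -1.66 ± 0.28 (adjusted p = 0.0113). MpRLK-Pelle_L-LEC2 had a difference of -0.80 ± 0.15 (adjusted p = 0.0392) and Mp2g18580 one of -1.47 ± 0.24 (adjusted p = 0.0113). The count was 0 without nitrate-starved replicate 3 or control replicate 2 of Mphd9-14 or control replicate 1 or 2 of Mpcsd-2, and 1 without nitrate-starved replicate 1 of Mpcsd-2.

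The difference from wild type was far larger, but genotype and experiment cannot be told apart there, because Tak-1 was starved in a separate time course and its counts come from another table. Beside the 160 genes of Mphd9-14, Tak-1 had 3748 genes called in a joint fit of 13477 genes (27.8%). The response differed for 2038 genes (15.1%), with 1071 (7.95%) higher and 967 (7.18%) lower in Mphd9-14. Of the 141 genes that rose in Mphd9-14, 15 rose and 36 fell in Tak-1, against 13.9% of all genes in each direction, and 89 had a higher and 4 a lower response in Mphd9-14 than in Tak-1, against 7.95% higher and 7.18% lower over all genes. Those differences use the Mphd9-14 libraries that selected the genes. Of the 19 genes that fell in Mphd9-14, 14 fell in Tak-1 as well.

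MpGT34.10 had 11.1, 10.96 and 11.2 CPM in nitrate-starved and 3.61, 4.10 and 4.23 CPM in control Mphd9-14, against 1.36, 0.898 and 0.854 CPM in nitrate-starved and 1.84, 2.83 and 2.03 CPM in control Tak-1. It rose in the mutant and fell in the wild type, with a difference of 2.55 ± 0.33 (adjusted p = 2.93e-06). MpCSLD4 and MpLEA-like54 had differences of 3.57 ± 0.81 (adjusted p = 0.00235) and 2.75 ± 0.64 (adjusted p = 0.00324), with Tak-1 responses of -1.64 ± 0.65 and -1.12 ± 0.52 that did not pass the test by themselves. MpHA11 and MpCupin84 also had a higher response in Mphd9-14, with differences of 2.11 ± 0.35 and 2.19 ± 0.70. MpCupin84 rests on uneven libraries, with 28.5, 3.83 and 2.14 CPM in nitrate-starved Tak-1, and its call was lost when any 1 of 7 libraries was left out.

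On the other side, MpDOXC22, of the 2-oxoglutarate-dependent dioxygenase family, had 67.7, 68.0 and 70.7 CPM in nitrate-starved and 63.7, 57.3 and 65.1 CPM in control Mphd9-14, against 92.1, 78.6 and 81.3 CPM in nitrate-starved and 28.4, 28.1 and 31.6 CPM in control Tak-1. It rose in Tak-1 by 1.51 ± 0.08 on the log2 scale, and the response in Mphd9-14 was lower by 1.36 ± 0.11 (adjusted p = 3.82e-10). MpGH19.4, of a chitinase family, had a difference of -1.72 ± 0.19, MpCCC2 of -2.67 ± 0.48, MpMLS5 of -1.64 ± 0.28 and MpCupin57 of -1.42 ± 0.23. WRKY factors, many of which act in plant defence and senescence, had a lower response in Mphd9-14 for 8 of 13 tested and a higher one for 0. In Mphd9-14 0 of those 13 were called under nitrate starvation, against 10 that rose in Tak-1. Class III peroxidases had a higher response in Mphd9-14 for 12 of 71 tested and a lower one for 2, and wall polysaccharide enzymes for 13 and 5 of 69, with 7.95% of all genes higher and 7.18% lower. Nitrate transporters had 3 higher and 1 lower of 23.

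Within Mphd9-14, nitrate starvation can also be set against the other starvations. Compared directly, 149 genes (1.13%) differed between nitrate-starved and phosphate-starved gemmalings, 49 (0.372%) higher and 100 (0.76%) lower after nitrate starvation. Of the 141 genes that rose under nitrate starvation, 3 were higher after nitrate than after phosphate starvation and 0 lower, although the nitrate-starved libraries serve both in this contrast and in the selection. Both starvations share the 3 control libraries, so their fold changes over control are given side by side only, with a median over the 141 genes of 1.30 for nitrate and 1.04 for phosphate. MpGT34.10 had 11.1, 10.96 and 11.2 CPM after nitrate starvation and 9.19, 11.1 and 11.6 CPM after phosphate starvation, with a difference of 0.06 ± 0.20 on the log2 scale. MpPPO72 had 8.35, 6.04 and 5.19 CPM after nitrate starvation and 5.15, 7.91 and 5.13 CPM after phosphate starvation. MpCSLD4 had 12.5, 11.01 and 12.8 CPM after nitrate starvation and 10.6, 13.0 and 9.21 CPM after phosphate starvation. The groups overlapped for all 3 genes. The 3 genes that were higher were Mp6g17710, Mp6g17720 and Mp5g24130, named after their values were seen.

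Phosphate transporters were among the genes with the widest gaps between both starvations. MpPTB4, a phosphate transporter, had 0 counts in all nitrate-starved libraries and 17.4, 18.8 and 16.9 CPM in phosphate-starved ones, which is at least 382-fold lower with 3 counts allowed over the nitrate-starved group. MpPTB8 had 19.8, 19.6 and 21.8 CPM after nitrate and 213, 234 and 203 CPM after phosphate starvation, a difference of -3.41 ± 0.16 (adjusted p = 3.49e-15). MpPPO32 had 4.91, 4.59 and 4.91 CPM after nitrate and 51.6, 48.2 and 50.3 CPM after phosphate starvation, a difference of -3.38 ± 0.21 (adjusted p = 6.42e-13). MpABCG20, an ABC transporter of the G class, and MpCYP8290, a cytochrome P450, were also lower after nitrate than after phosphate starvation, by differences of -1.02 ± 0.16 and -1.42 ± 0.18. In control libraries MpPTB4 had 0 counts as well. Before scaling, counts summed over the nitrate-starved and over the control libraries were 311 and 260 for MpPPO32 and 1097 and 964 for MpABCG20. They were 1326 and 2075 for MpPTB8 and 280 and 357 for MpCYP8290.

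Higher after nitrate than after phosphate starvation were MpLPR7, MpPOD88, MpHA11, MpUGT11 and MpXPL. MpLPR7 had 34.096, 30.1 and 32.9 CPM after nitrate and 14.5, 16.0 and 15.2 CPM after phosphate starvation, with 49.6, 38.4 and 44.2 CPM in control libraries, and its difference was 1.09 ± 0.14 (adjusted p = 8.89e-06). MpPOD88 had 15.4, 11.5 and 16.2 CPM after nitrate and 6.21, 6.53 and 7.17 CPM after phosphate starvation, with a difference of 1.12 ± 0.27 (adjusted p = 0.0256). MpHA11, MpUGT11 and MpXPL had differences of 0.95 ± 0.23, 0.86 ± 0.19 and 0.56 ± 0.09. The calls of MpPOD88 and MpHA11 were lost when any 1 of 5 or 6 of the 6 libraries was left out. Of the 19 genes that fell under nitrate starvation 10 were lower than after phosphate starvation, against 0.76% of all genes tested. For these genes too, the nitrate-starved libraries serve both in the contrast and in the selection. Among the 10 was MpLTP-like68, with 30.6, 32.0 and 24.5 CPM after nitrate and 52.9, 49.3 and 60.1 CPM after phosphate starvation (difference -0.90 ± 0.12, adjusted p = 1.91e-05).

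**Figure D5:**
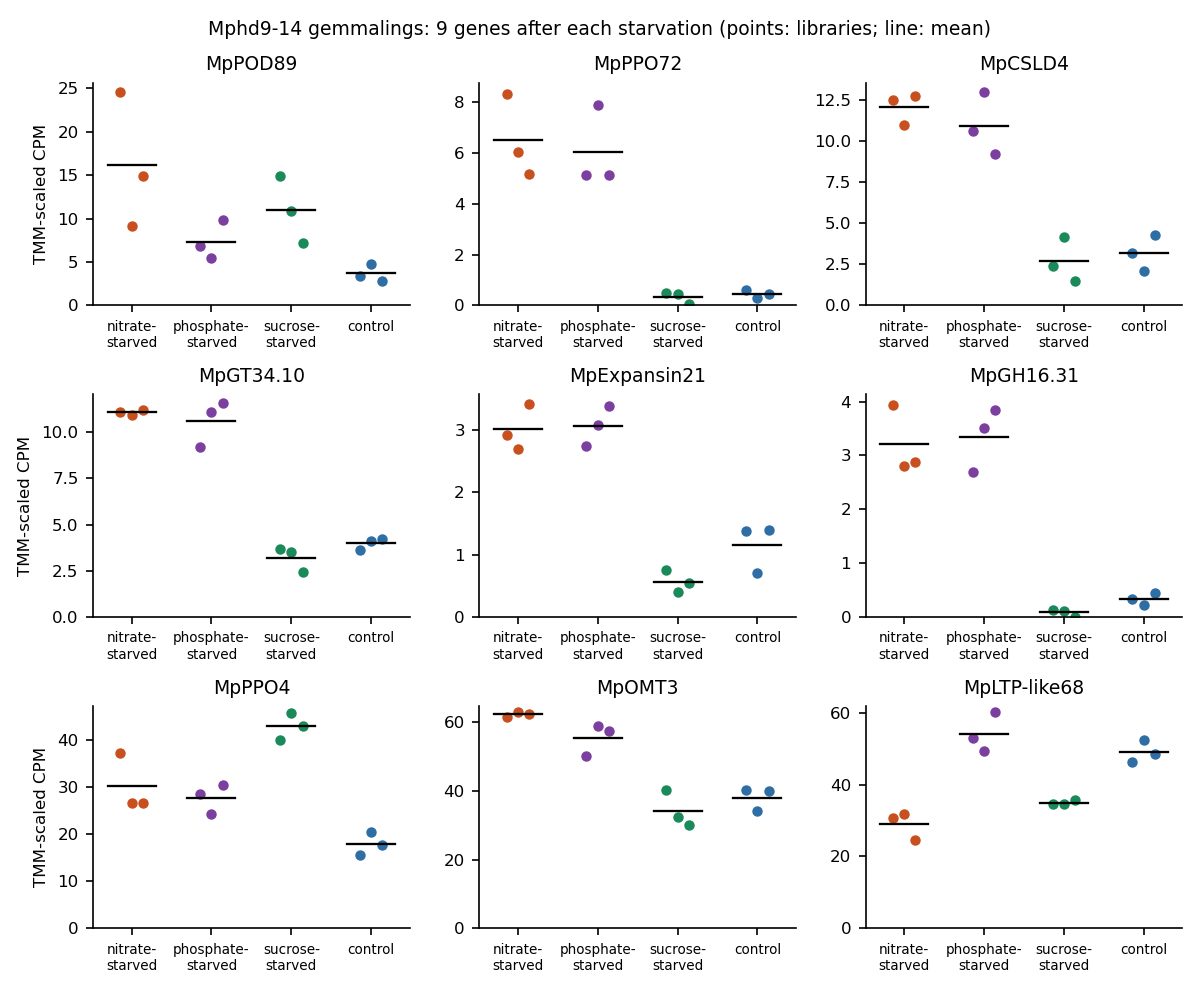
TMM-scaled CPM (vertical axes, from 0) of 9 genes in the nitrate-starved, phosphate-starved, sucrose-starved and control libraries of Mphd9-14, 3 points a group with a line for the mean. For MpPPO72, MpCSLD4, MpGT34.10, MpExpansin21 and MpGH16.31 the nitrate-starved and phosphate-starved libraries lie together above the sucrose-starved and control libraries, while MpLTP-like68 is low after nitrate and sucrose starvation.

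Nitrate-starved and sucrose-starved Mphd9-14 gemmalings differed widely, with 3434 genes called (26.1%), 1673 higher and 1761 lower after nitrate starvation. Of the 141 genes that rose under nitrate starvation, 114 were higher and 2 lower after nitrate than after sucrose starvation, in a contrast that uses the nitrate-starved libraries by which they were selected, and their median log2 fold change over the shared control was -0.15 after sucrose starvation. Expansins were higher after nitrate starvation for 14 of 22 tested and lower for 0, and class III peroxidases for 33 and 7 of 69, against 12.7% of all genes higher and 13.4% lower. Nitrate transporters were higher for 12 of 23 and lower for 1. MpCSLD4 had 12.5, 11.01 and 12.8 CPM after nitrate and 2.41, 4.19 and 1.5004 CPM after sucrose starvation, a difference of 2.18 ± 0.51 (adjusted p = 0.00190). MpHA11 had 18.9, 17.3 and 21.6 CPM after nitrate and 4.95, 5.60 and 5.55 CPM after sucrose starvation, a difference of 1.85 ± 0.25 (adjusted p = 2.12e-06). MpLEA-like54, MpPOD88 and MpCupin83 were higher by 1.86 ± 0.37, 1.80 ± 0.28 and 2.11 ± 0.54 on the log2 scale.

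Several regulator lists had more lower than higher calls in that contrast. WRKY factors were lower after nitrate than after sucrose starvation for 8 of 13 tested and higher for 0, bZIP factors for 7 and 1 of 13, NAC factors for 5 and 0 of 7, and autophagy genes, which recycle cell contents, for 7 and 0 of 21. Over all genes tested 13.4% were lower and 12.7% higher. These lists were picked after their counts were seen, and those of the ERF, MYB, bHLH, homeobox and GRAS, GATA, Dof and CCA1-like factors are not given here. MpWRKY14 had 4.27, 2.91 and 2.63 CPM after nitrate and 33.8, 29.1 and 29.2 CPM after sucrose starvation, a difference of -3.23 ± 0.56 (adjusted p = 7.95e-05). MpCCC2 had 7.92, 9.88 and 10.4 CPM after nitrate and 101, 91.1 and 106 CPM after sucrose starvation, a difference of -3.40 ± 0.38 (adjusted p = 1.47e-07). MpGH16.8, MpPR6a and MpPP2C_F3, a protein phosphatase 2C, differed by -2.62 ± 0.47, -2.01 ± 0.19 and -1.97 ± 0.25. MpPPO4 was 1 of 2 genes that rose under nitrate starvation and were still lower than after sucrose starvation, with 37.2, 26.6 and 26.5 CPM after nitrate and 39.9, 45.7 and 43.0 CPM after sucrose starvation, a difference of -0.51 ± 0.17 (adjusted p = 0.0306). The other was Mp1g28940, named after its values were seen.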

How the data were processed

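RNA of whole gemmalings was sequenced as poly(A)-selected, strand-specific libraries, per the labels' protocols. The deposited values are raw read counts per gene and library, made by the authors with STAR 2.7, with DESeq2 also named, per the submitters' processing notes. The counting program, strand setting and genome build are not given in the sources used here. Of 19355 gene IDs, 17384 matched the MpTak2_v7.1 reference table and 3091 had a symbol. No column was left unmatched (0), no 2 libraries were identical, and the Klebsormidium counts were not used.

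Counts were TMM-scaled, filtered with filterByExpr by group and tested with edgeR 4.0.16 (quasi-likelihood, limma 3.58.1, R 4.3.3) over all 35 libraries of the mutant table, which share 1 estimate of spread, with Benjamini-Hochberg adjustment over 13162 genes and a threshold of 0.05. A response difference is an interaction contrast, for Tak-1 in a joint fit of 41 libraries from 2 tables (16878159 to 28439838 counts per mutant library, 23939816 to 38992957 per Tak-1 library). The scripts were tested on simulated data. Alternatives were DESeq2 1.42.0, RLE scaling, no filter, a replicate block, a fit of the contrasted groups only and leaving out each replicate.

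Named genes were the 10 highest and 10 lowest changes (5 and 5 for other comparisons) among called, symbol-bearing genes whose higher group averaged 10 CPM or more and whose groups did not overlap, with up to 3 called members per gene list by adjusted p, the nitrogen lists and the mutated genes. Further called members of the peroxidase, polyphenol oxidase, wall and expansin lists, and other genes outside this rule, were chosen after their values were seen. The members and lists were chosen with earlier results of these data known. Lists for ribosomal proteins and proteases matched 0 genes. The control-conditions table served only for levels.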

Additional observations from a re-analysis of the deposited data

Results flagged for a closer look

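The nitrate response of Mphd9-14 differed from that of Mpcsd-2 by an interaction test for 3 genes, all lower in Mphd9-14. Their differences of log2 fold changes were -1.66 for MpPPO4, -1.47 for Mp2g18580 and -0.80 for MpRLK-Pelle_L-LEC2. Mp2g18580 had 10.7, 8.15 and 9.04 CPM in nitrate-starved and 6.17, 7.46 and 6.37 CPM in control Mphd9-14, against 12.5, 10.2 and 15.8 CPM in nitrate-starved and 3.15, 3.38 and 3.39 CPM in control Mpcsd-2.

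The response differed from that of Tak-1 by an interaction test for 2038 genes, in a design where line and experiment cannot be told apart. Among named genes the difference was positive for MpCSLD4 (3.57), MpLEA-like54 (2.75), MpGT34.10 (2.55), MpCupin84 (2.19) and MpHA11 (2.11), so that the response was higher in Mphd9-14. It was negative for MpCCC2 (-2.67), MpGH19.4 (-1.72), MpMLS5 (-1.64), MpCupin57 (-1.42) and MpDOXC22 (-1.36). MpCCC2 had 7.92, 9.88 and 10.4 CPM in nitrate-starved and 16.5, 28.3 and 14.5 CPM in control Mphd9-14, against 87.0, 106 and 99.9 CPM in nitrate-starved and 41.4, 24.8 and 29.9 CPM in control Tak-1. The nitrate-starved Tak-1 libraries were uneven for some genes, with MpCupin84 at 28.5, 3.83 and 2.14 CPM and MpWRKY14 at 23.4, 4.70 and 5.82 CPM in replicates 1, 2 and 3. No group of 3 samples was tested for single outlying libraries.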

How the results depend on the processing

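The 160 calls of nitrate-starved against control Mphd9-14 became 250 with DESeq2 and 572 with the contrasted groups only, and 45 to 110 when 1 library was left out, while RLE scaling gave 164 and no low-count filter 153. An estimated change of at least 2-fold left 96 of the 160. With the contrasted groups only, 20 peroxidases and 15 wall enzymes rose. Leaving out 1 library gave 1 to 8 peroxidases, 3 to 6 polyphenol oxidases, 0 to 5 wall enzymes and 0 to 2 expansins. Against Mpcsd-2 the count was 11 with DESeq2 and 0 to 4 with 1 library left out, and against Mperf20-21 it was 0 in each of those fits. Against Tak-1 the contrasted groups only gave 3211 and leaving out 1 library 1494 to 2039. Nitrate against phosphate starvation gave 557 with the contrasted groups only and 100 to 118 with 1 library left out, and nitrate against sucrose starvation 2374 to 3595 with 1 library left out. Of 33 named called genes, 7 kept their call in all 11 alternatives, and 24 lost it without control replicate 2. With 1 library left out the log2 fold change of MpERF20 ran from -0.38 to 0.0229, positive without control replicate 2, and that of MpCSD from -0.0142 to 0.0432, negative without control replicate 3, and neither was called. The cause was not tested.

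The replicate numbers gave correlations of deviations of 0.05, -0.02 and -0.08 for replicates 1, 2 and 3 of the nitrate-starved and control groups, so the numbers were not taken to pair the libraries. With a replicate block 3 of the 33 named calls were lost, MpCSLD4 (adjusted p = 0.0554), MpExpansin12 (0.0541) and MpLEA-like55 (0.0885), and the counts were 159 for nitrate starvation (140 shared with the 160), 3 against Mpcsd-2, 0 against Mperf20-21, 1893 against Tak-1, 136 against phosphate and 3329 against sucrose starvation. Depth limits the peroxidases, of which several had at most 3 counts over the control libraries.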

Other observations

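A further set of Mphd9-14 control gemmalings stands in the table of control conditions, which was not tested against the starvation libraries. There, before TMM scaling, MpPOD89 was at 128, 62.7 and 68.5 CPM in Mphd9-14 and 80.7, 68.9 and 77.9 CPM in Tak-1, above the 9.12 to 24.5 CPM in nitrate-starved and 2.83 to 4.80 CPM in control Mphd9-14 libraries of the starvation set, which are TMM-scaled. MpCSLD4 was at 3.80 to 5.30 CPM and MpGT34.10 at 3.30 to 5.67 CPM in those Mphd9-14 controls, below their nitrate-starved libraries. MpCSLD2 at 0.199 to 0.802 CPM, MpPPO72 at 0.341 to 1.91 CPM and MpLOX11 at 0.0398 to 0.555 CPM were below theirs too. MpCSLD1 at 20.5, 20.5 and 24.7 CPM and MpCSLD7 at 31.2, 32.8 and 28.4 CPM overlapped the range of their nitrate-starved libraries. MpPPO4 was at 47.4, 31.3 and 35.2 CPM there, against a nitrate-starved mean of 30.1 CPM. MpPPO48 at 3.63, 5.57 and 4.46 CPM and MpGST9 at 537, 494 and 486 CPM were above all their nitrate-starved libraries. MpExpansin34, called lower, was at 2.26, 1.87 and 1.95 CPM, within its nitrate-starved range. The full set of named genes was not compared.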
